A study of Homo sapiens with 6 samples.

Results

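The insulin-like growth factor (IGF) axis was described in HepG2 cells that carried either of 2 forms of the transcription factor VEZF1. The 10 genes were taken by name, with earlier results of these data known: the binding proteins IGFBP1, IGFBP2, IGFBP3, IGFBP4, IGFBP5, IGFBP6 and IGFBP7, the ligand IGF2 and the receptors IGF1R and INSR. All 10 were among the 59608 genes of the count table, and 9 of them were among the 19111 genes with enough counts to be tested. HepG2 is a human cell line long established from a liver cancer. In every library, endogenous VEZF1 had been eliminated with a lentiviral guide RNA, and a coding sequence was then put back. It was the unaltered protein in VEZF1-WT, and in VEZF1-2A a protein with alanine in place of adjacent serines that can carry O-GlcNAc. O-GlcNAc is a single sugar that cells attach to serine or threonine of proteins inside the cell. The paper also names other potential sites of the sugar on VEZF1, and reports much less of it on the alanine form. The comparison asks which transcripts differ between cells with the 2 forms. In another liver cancer cell line, the paper reports a shorter half-life for the alanine form. Loss of the sugar at the exchanged serines, less VEZF1 protein and the exchanged residues themselves cannot be told apart here. There were 3 libraries of each form, and no library of cells without re-expressed VEZF1 or of unedited cells was analysed here. Cultures of 1 cell line do not have the hormone supply, blood flow or neighbouring cells of a liver.

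In the IGF axis, IGF1 and IGF2 are secreted peptides that signal through the tyrosine kinase receptor IGF1R and, for IGF2 and insulin, through the insulin receptor INSR. The IGFBPs are secreted proteins that hold most IGF outside cells in complexes, which sets how much ligand reaches a receptor and how long it lasts. The liver makes much of the IGF and IGFBP of the blood. In hepatocytes, IGFBP1 transcription is driven by FOXO factors and shut down by insulin, and IGF2 is a fetal liver transcript that many liver cancers keep.

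Read counts per library ranged from 28756765 to 57199396, and mitochondrial genes took 7.94% to 8.55% of them. VEZF1 itself was at 59.3, 45.6 and 40.0 CPM in the VEZF1-WT libraries and 46.2, 48.6 and 38.9 CPM in the VEZF1-2A libraries, a log2 difference of 0.12 (unadjusted edgeR p 0.407). These are counts over the whole gene, so RNA of the edited endogenous gene and of the re-expressed sequence was not separated and the level does not check the elimination. Counts per gene do not show which form a library carries either, so the directions given here rely on how the libraries were labelled. All 10 hepatocyte markers (ALB and AFP among them) were at 1 CPM or more in every library, with sums of 15430 to 19653 CPM in VEZF1-WT and 14785 to 19110 CPM in VEZF1-2A. Of 8 fibroblast markers 1, ACTA2, reached 1 CPM in every library, LUM was at 0 throughout, and the sums were 29.3 to 37.5 CPM and 29.3 to 40.8 CPM. The 5 endothelial markers summed to 2.20 to 3.53 CPM and 2.20 to 4.35 CPM. The 4 leukocyte markers summed to 668 to 776 CPM and 656 to 756 CPM, nearly all of it LYZ and CD68, with at most 4 counts of PTPRC and 2 of CD3E in a library. CPM is the count of a gene relative to the total of its library, scaled between libraries.

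Between VEZF1-WT and VEZF1-2A, the transcripts of IGFBP1 and IGFBP2 were the members that had the smallest unadjusted p, both with less RNA in VEZF1-WT, and neither passed the adjusted threshold. The level of IGFBP1 was 30.3 ± 9.98 CPM with VEZF1-WT against 57.2 ± 25.6 CPM with VEZF1-2A (SD, n = 3), and that of IGFBP2 was 1.30 ± 0.203 CPM against 1.87 ± 0.410 CPM. In edgeR's quasi-likelihood test none of the 19111 genes passed the adjusted threshold of 0.05 (percent called 0), and the smallest adjusted p of any gene was 0.9996. At an unadjusted p under 0.05 the same test called 408 genes, 2.13% of those tested, of which 249 (1.3%) were lower and 159 (0.832%) higher in VEZF1-WT. DESeq2 called 3 genes at its adjusted threshold and limma voom 0, none of them members. Of the 9 members tested, 2 had an unadjusted p under 0.05, IGFBP1 and IGFBP2. The same 2 were the members whose VEZF1-WT and VEZF1-2A libraries did not overlap, which was so for 7.36% of all genes tested and, with VEZF1-WT lower, for 3.86%. The log2 fold change, VEZF1-WT over VEZF1-2A, was below 0 for 7 members and above 0 for 2, with a median of -0.10, beside 0.00 over all genes tested.

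**Figure D1:**
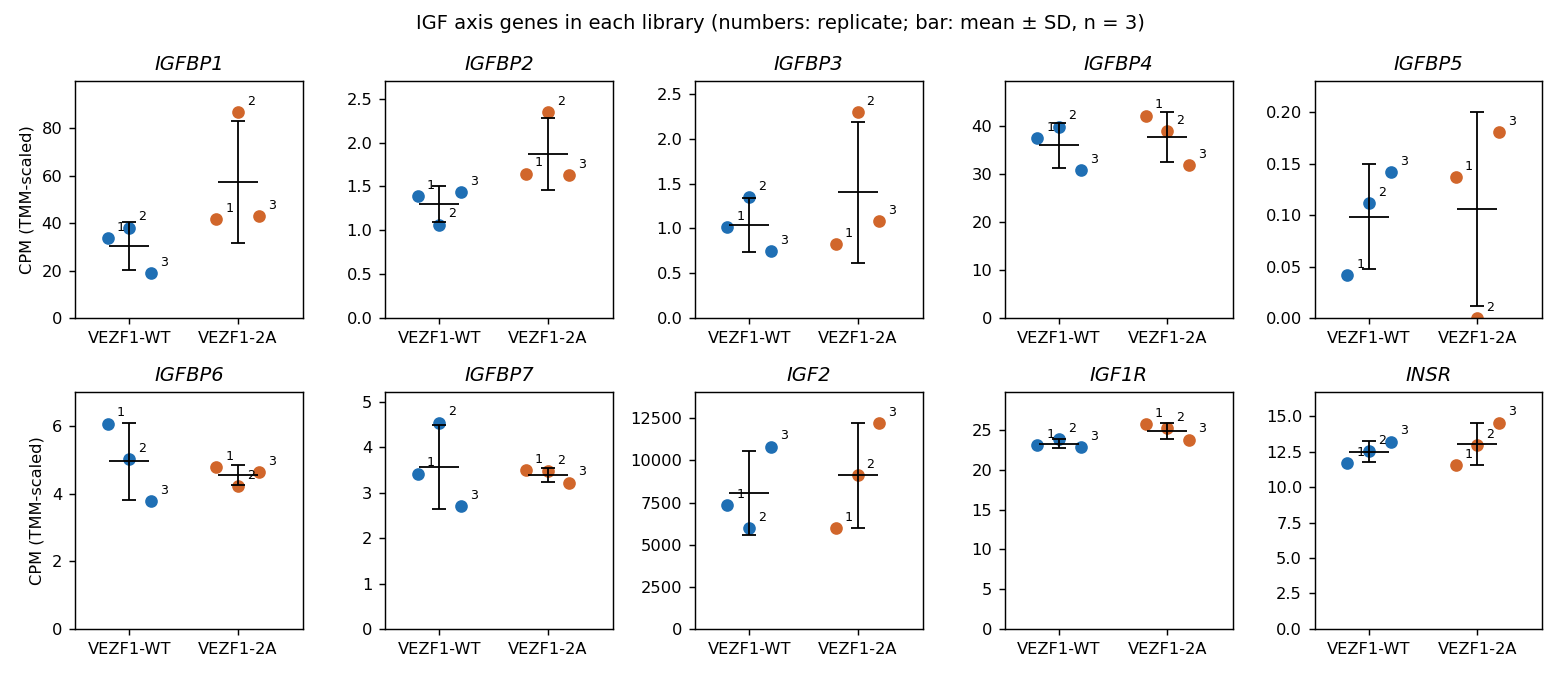
CPM of each of the 10 genes in the 3 VEZF1-WT libraries (blue) and the 3 VEZF1-2A libraries (orange), numbered by replicate, with the mean and SD as bars and each axis starting at 0. IGFBP1 and IGFBP2 have their groups apart, with VEZF1-2A-2 highest (86.8 CPM and 2.35 CPM), while IGF2 is high in both libraries numbered 3.

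IGFBP1 is the insulin-repressed binding protein of the liver (chromosome 7, 45888360 to 45893660, plus strand, GRCh38). Its CPM was 33.8, 38.1 and 19.1 in the VEZF1-WT libraries 1 to 3 and 41.8, 86.8 and 43.1 in the VEZF1-2A libraries 1 to 3, from 1076 to 3475 counts a library. Every VEZF1-2A library was above every VEZF1-WT library, but the gap between the nearest pair was small beside the distance of VEZF1-2A-2 from the rest. The log2 fold change was -0.93 (SE 0.30, 95% interval -1.58 to -0.27), a 1.90-fold higher level in VEZF1-2A, and the quasi-likelihood test of edgeR gave an unadjusted p of 0.0101 and, by Benjamini-Hochberg, an adjusted p of 0.9996. An exact two-sided permutation test gave 0.1, which is the smallest p that 3 libraries against 3 allow. Without VEZF1-2A-2 the log2 difference was -0.49 with an unadjusted edgeR p of 0.0678, and it was -0.68 without VEZF1-WT-3. In bulk RNA, fewer cells that express a gene and less RNA per cell cannot be told apart.

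IGFBP2 is the binding protein abundant in fetal liver and in many tumours (chromosome 2, 216632828 to 216664436, plus strand). It was a low transcript here, with 1.39, 1.07 and 1.44 CPM in VEZF1-WT and 1.65, 2.35 and 1.63 CPM in VEZF1-2A, which rest on 38 to 94 counts a library. The groups did not overlap, and VEZF1-2A-2 was again the highest library. The log2 fold change was -0.53 (SE 0.22, 95% interval -1.02 to -0.03), 1.44-fold higher in VEZF1-2A, with an unadjusted p of 0.0402 and an adjusted p of 0.9996 (edgeR). Its unadjusted edgeR p was 0.204 without VEZF1-2A-2, 0.116 without VEZF1-WT-2 and 0.0602 without VEZF1-WT-1. The study prints the name of IGFBP2 among genes it picked by joining VEZF1 ChIP-seq with these same libraries. ChIP-seq maps where a protein binds DNA. The difference of IGFBP2 here is thus not independent evidence. The paper describes the genes picked this way as higher in VEZF1-WT, whereas IGFBP2 was lower there in these counts. Even numbers made up 65.7% to 67.5% of all values between 11 and 100, so such counts may stand for fewer independent reads.

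IGFBP3, the main carrier of IGF in blood, lies next to IGFBP1 on chromosome 7 (45912245 to 45921874, minus strand), with 18.585 kb between the genes. It had 1.01, 1.35 and 0.745 CPM in VEZF1-WT and 0.823, 2.30 and 1.09 CPM in VEZF1-2A. The groups overlapped, since only VEZF1-2A-2 lay above the VEZF1-WT libraries. The log2 difference was -0.49 (SE 0.38, unadjusted edgeR p 0.218), and it was 0.088 without VEZF1-2A-2. VEZF1-2A-2 was thus the highest library for IGFBP1, IGFBP2 and IGFBP3, 3 of the 9 members tested, and it was the highest library for 16.5% of all genes tested. VEZF1-WT-3 was the lowest for 6 of the 9 (IGFBP1, IGFBP3, IGFBP4, IGFBP6, IGFBP7 and IGF1R) and for 16.3% of all genes tested. What sets those libraries apart was not tested.

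IGFBP4, which mainly holds back IGF action, did not separate by VEZF1 form (chromosome 17, 40443450 to 40457725, plus strand). It was at 37.4, 39.9 and 30.8 CPM in VEZF1-WT and 42.1, 39.0 and 31.9 CPM in VEZF1-2A, for a log2 difference of -0.07 (unadjusted edgeR p 0.574). IGFBP6, which prefers IGF2 to IGF1, had 6.08, 5.02 and 3.80 CPM in VEZF1-WT and 4.80, 4.22 and 4.65 CPM in VEZF1-2A (chromosome 12, 53097436 to 53102345, plus strand). The VEZF1-2A values lay inside the range of VEZF1-WT, and the log2 difference was 0.12 (p 0.490 unadjusted, edgeR).

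IGFBP7, a distant relative with weak affinity for IGF, was measured at 3.42, 4.55 and 2.71 CPM in VEZF1-WT and at 3.50, 3.47 and 3.23 CPM in VEZF1-2A, a log2 difference of 0.05 (unadjusted edgeR p 0.788). It lies on the minus strand of chromosome 4 (57030773 to 57110385), and 260 of its exon bases, 13.5% of the gene, are also exon of POLR2B on the plus strand. POLR2B, a subunit of RNA polymerase II, had 4752 to 9214 counts a library against 102 to 162 for IGFBP7. An even spread of POLR2B reads over its exons would put 210 to 407 of them into the shared bases, more than IGFBP7 was counted with in each library. The strand setting of the counting is not given in the sources used here, so how much of the IGFBP7 count is its own was not tested. IGFBP5, the binding protein known from bone and muscle, was close to absent, with 2, 4 and 8 counts in VEZF1-WT and 4, 0 and 6 counts in VEZF1-2A (chromosome 2, 216672105 to 216695549, minus strand). It was left out of the test for low counts. The 0 in VEZF1-2A-2 allows a level of up to 0.0750 CPM, taking 3 counts as the limit, which covers counting error only.

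**Figure D2:**
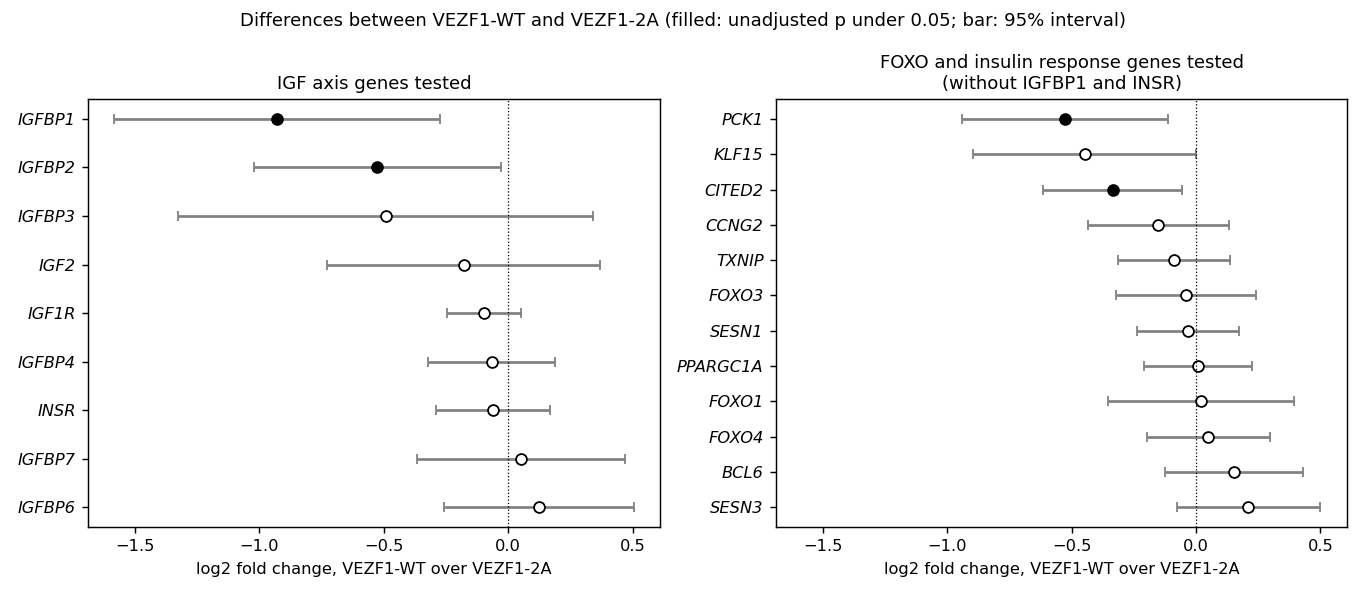
Log2 fold change, VEZF1-WT over VEZF1-2A, with its 95% interval (horizontal bars) for the 9 IGF axis genes tested (left) and for 12 further genes of the FOXO and insulin response list (right), filled where the unadjusted edgeR p was under 0.05. IGFBP1 (-0.93), IGFBP2 (-0.53), PCK1 (-0.53) and CITED2 (-0.34) have intervals below 0, and every adjusted p was 0.9996.

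The 2 members with the lowest unadjusted p are not neighbours, but each sits beside another binding protein gene. IGFBP2 and IGFBP5 stand 7.669 kb apart on chromosome 2 on opposite strands. TNS1, the adhesion gene on which the study centres, lies 1104.04 kb beyond IGFBP5. It had 1.18, 1.24 and 0.781 CPM in VEZF1-WT and 1.37, 3.30 and 2.08 CPM in VEZF1-2A, with VEZF1-2A-2 highest here too (log2 difference -1.11, SE 0.32, unadjusted edgeR p 0.00541). The groups did not overlap, and TNS1 was lower in the libraries labelled VEZF1-WT. The paper reports the opposite direction, and lists TNS1 among genes higher in VEZF1-WT from ChIP-seq joined with RNA-seq. By qPCR and protein blots in HepG2 and a second liver cancer line, it found less TNS1 without VEZF1. There TNS1 was raised by re-expression of the unaltered protein but not of the alanine form. Whether the library labels account for the opposite direction was not tested, and the direction of every difference given here depends on them. The 2 genes tested between IGFBP5 and TNS1, DIRC3 and RPL7L1P9, gave 0 calls at an unadjusted edgeR p under 0.05. Both were lower in VEZF1-WT, with log2 differences from -0.85 to -0.14. Within 250 kb of any member, the only tested gene outside the family below that p was TTC23 near IGF1R (log2 difference -0.20, unadjusted edgeR p 0.0475).

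VEZF1 is known to bind strings of guanine, so the promoters of these genes were searched for GGGGGG on either strand, written GGGGGG or CCCCCC. RefSeq promoter windows of 300 bases (250 before and 50 after a start site, GRCh38.p14) were at hand for 7 of the 10 members, in 9 windows. IGFBP1, IGFBP7 and IGF2 had none. The string occurred in 4 of the 9 windows, 1 each of IGFBP2, IGFBP3, IGFBP5 and IGFBP6, and in 18.8% of all 35116 windows of this kind (22.5% of the 15937 windows of genes tested). A window with the string is shown for each gene of the pair IGFBP2 and IGFBP5, with that of IGFBP3, since these carry or adjoin the differences above; each is written 5′ to 3′ on its gene's strand, with the run of G or C in capitals.
IGFBP2, chr2:216633170-216633469, plus strand: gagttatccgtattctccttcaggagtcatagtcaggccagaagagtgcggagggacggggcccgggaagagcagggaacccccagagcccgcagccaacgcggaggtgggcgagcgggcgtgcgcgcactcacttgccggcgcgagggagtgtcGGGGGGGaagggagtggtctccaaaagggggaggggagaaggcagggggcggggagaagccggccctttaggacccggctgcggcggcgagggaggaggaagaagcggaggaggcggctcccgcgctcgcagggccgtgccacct
IGFBP5, chr2:216695500-216695799, minus strand: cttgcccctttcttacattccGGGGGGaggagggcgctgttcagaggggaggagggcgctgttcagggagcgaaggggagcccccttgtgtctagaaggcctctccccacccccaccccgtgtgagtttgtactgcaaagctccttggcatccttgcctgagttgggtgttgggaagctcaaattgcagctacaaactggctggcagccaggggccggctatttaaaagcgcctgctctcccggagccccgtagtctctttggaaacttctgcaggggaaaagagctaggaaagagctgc
IGFBP3, chr7:45921223-45921522, minus strand: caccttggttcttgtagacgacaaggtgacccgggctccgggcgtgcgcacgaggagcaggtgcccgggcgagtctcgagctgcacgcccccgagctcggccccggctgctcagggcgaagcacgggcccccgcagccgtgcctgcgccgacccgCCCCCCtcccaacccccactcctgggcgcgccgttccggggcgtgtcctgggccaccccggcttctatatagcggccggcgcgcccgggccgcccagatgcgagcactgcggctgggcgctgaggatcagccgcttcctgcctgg
In IGFBP2 the run of 7 guanines begins 95 bases before the start site, in IGFBP5 a run of 6 begins 229 bases before it, and in IGFBP3 a run of 6 cytosines begins 95 bases before it. IGFBP6 has 2 runs, and its RNA did not separate by VEZF1 form. The string was absent from the other 2 windows of IGFBP2 and from those of IGFBP4, IGF1R and INSR. A FOXO-type core, CAAAACA, read on both strands, was in 0 of the 9 windows and in 4.92% of all windows. A match here is a run of letters, not a measured binding site, and the ChIP-seq data of the study were not used.

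IGF2 was by far the most abundant member, and it varied more between replicates than between VEZF1 forms. Its share of all counts was 0.604% to 1.19%, and it ranked from 24 to 40 among all genes by TPM, a level per length that sums to the same total in every library. In CPM it was at 7338, 5976 and 10822.5 in VEZF1-WT and at 5966.5, 9145 and 12223 in VEZF1-2A. Both libraries numbered 3 were the highest of their group, and the groups overlapped over almost their whole range. The log2 difference was -0.18 (SE 0.25, 95% interval -0.73 to 0.37, unadjusted edgeR p 0.484), so differences in either direction within that interval were not resolved. IGF2 is an imprinted gene on the minus strand of chromosome 11 (2129112 to 2141238). It shares 4424 exon bases, 70.7% of its own, with AC132217.2 on the same strand, whose count was 99.8% of that of IGF2 in every library. The counts therefore do not tell these entries apart. INS-IGF2, a read-through transcript with 998 shared bases, had 1.21% of the IGF2 count.

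Neither receptor was called between the VEZF1 forms. IGF1R had 23.1, 23.9 and 22.8 CPM in VEZF1-WT and 25.7, 25.2 and 23.8 CPM in VEZF1-2A (chromosome 15, 98648539 to 98964530, plus strand). The lowest VEZF1-2A library lay just under the highest VEZF1-WT library, and the log2 difference was -0.10 (SE 0.07, 95% interval -0.25 to 0.05, unadjusted edgeR p 0.170). For INSR the levels were 11.7, 12.5 and 13.2 CPM in VEZF1-WT and 11.6, 13.0 and 14.5 CPM in VEZF1-2A, with a log2 difference of -0.06 (chromosome 19, 7112255 to 7294414, minus strand, unadjusted edgeR p 0.562). Per length, the ratio of IGF1R to INSR was 1.27 to 1.73 over the 6 libraries. IGF2R, the receptor that takes up IGF2 for degradation, was 16.5 to 18.6 times as high as IGF1R in TPM, at 76.5 ± 1.61 TPM in VEZF1-WT and 76.0 ± 4.12 TPM in VEZF1-2A (log2 difference 0.00, SE 0.05).

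Per length, the members ranged from among the most abundant transcripts of these cells to nearly none. IGF2 stood first with 3235 ± 912 TPM in VEZF1-WT and 3631 ± 1136 TPM in VEZF1-2A (SD, n = 3). IGFBP1 followed with 47.0 ± 16.5 TPM and 87.8 ± 40.3 TPM, and IGFBP4 with 41.4 ± 6.44 TPM and 43.1 ± 7.29 TPM. These neighbours overlapped, and IGFBP1 was above IGFBP4 in 5 of the 6 libraries, VEZF1-WT-3 being the exception. IGFBP6 came next at 6.93 to 11.5 TPM, below IGFBP4 in all 6 libraries. IGFBP7 (3.45 to 6.09 TPM) and IGF1R (4.02 to 4.76 TPM) could not be ordered, since IGFBP7 was higher in 2 of 6. INSR lay below both at 2.75 to 3.25 TPM. IGFBP2 (0.582 to 1.26 TPM) and IGFBP3 (0.400 to 1.28 TPM) overlapped in turn, and IGFBP5 was last at 0 to 0.0677 TPM.

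**Figure D3:**
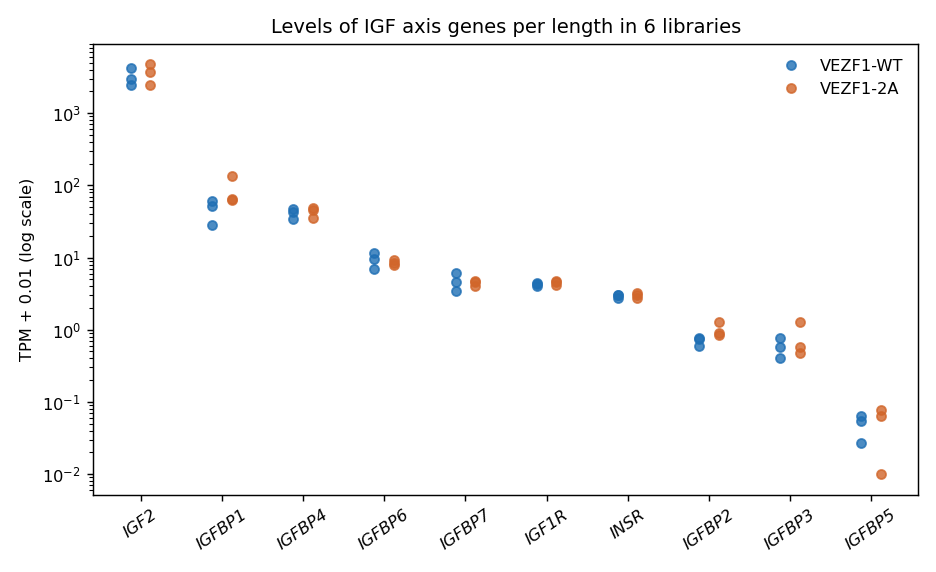
TPM plus 0.01 on a log scale for the 10 genes, ordered by level, in the 3 VEZF1-WT libraries (blue) and the 3 VEZF1-2A libraries (orange). IGF2 lies at 2456 to 4725 TPM, above every binding protein in all 6 libraries, and IGFBP5 is at the bottom with a 0 in VEZF1-2A-2.

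IGFBP1 and IGFBP4 made up most of the binding protein RNA. Together they held 84.4% to 92.2% of the TPM summed over the 7 IGFBP genes. The sum itself was 113, 124 and 74.4 TPM in VEZF1-WT and 130, 194 and 112 TPM in VEZF1-2A. VEZF1-WT-3 had the least and VEZF1-2A-2 the most, and the groups overlapped. IGFBP1 held 46.4%, 48.4% and 38.4% of the sum in VEZF1-WT against 50.4%, 69.1% and 56.5% in VEZF1-2A. IGFBP4 held 38.2%, 37.7% and 46.1% against 37.9%, 23.1% and 31.1%. The IGFBP1 shares were higher in each VEZF1-2A library than in any VEZF1-WT library, which follows in part from the IGFBP1 level described above and was given no test. The ratio of IGF2 to summed IGFBP in TPM was 26.4, 19.9 and 57.1 in VEZF1-WT against 18.9, 19.1 and 42.0 in VEZF1-2A, highest in both libraries numbered 3.

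**Figure D4:**
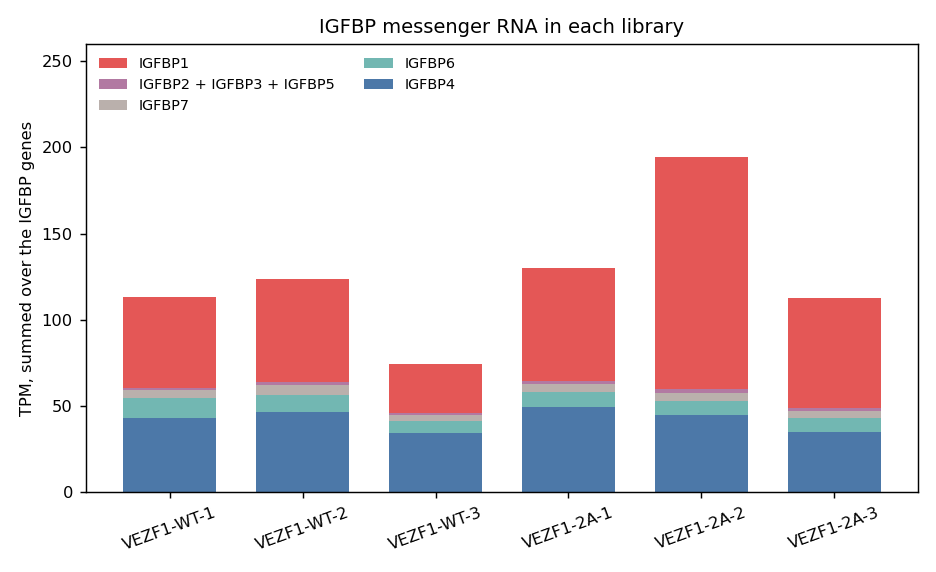
TPM of the IGFBP genes stacked in each library, with IGFBP2, IGFBP3 and IGFBP5 joined. IGFBP1 and IGFBP4 fill 84.4% to 92.2% of each bar, and the tallest bar, VEZF1-2A-2 at 194 TPM, is made so by IGFBP1.

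In the wider IGF pathway no gene was called between the groups. Of 35 further genes (ligands, receptors, IGFBP proteases and their inhibitors, receptor substrates, kinases and IGF2 mRNA-binding proteins) 24 were tested, of which 12 lay below and 12 above 0 with a median log2 difference of 0.00, and 0 had an unadjusted p under 0.05. The 3 highest in TPM were PTPN1, the phosphatase that quiets the insulin receptor (101 ± 3.58 and 95.6 ± 0.939 TPM in VEZF1-WT and VEZF1-2A), IGF2BP2, which binds IGF2 mRNA (80.8 ± 1.53 and 81.2 ± 3.36 TPM), and IGF2R. Their log2 differences were 0.06, -0.02 and 0.00. IGF1, chosen here after its values were seen, had 16, 14 and 19 counts in VEZF1-WT and 2, 8 and 8 counts in VEZF1-2A. Its groups did not overlap and VEZF1-WT was higher (log2 difference 1.01, SE 0.47, unadjusted edgeR p 0.0547), but HELLPAR on the opposite strand covers 82.5% of its exon bases. The ligand INS, the complex partner IGFALS, the proteases PAPPA and PAPPA2 and the growth hormone receptor GHR were among the 11 genes whose counts were too low for the test.

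IGFBP1 is a textbook FOXO target, and a list of 17 FOXO and insulin response genes was read beside it. Of its 14 genes tested, 3 were lower in VEZF1-WT at an unadjusted p under 0.05 (IGFBP1, PCK1 and CITED2) and 0 were higher, beside 1.3% and 0.832% of all genes tested. By sign alone, 9 of the 14 lay below 0 and 5 above, with a median log2 difference of -0.05. Without IGFBP1 and INSR, 2 of 12 were lower at that unadjusted p and the median was -0.04. PCK1, which commits carbon to gluconeogenesis, had 2.07, 1.74 and 1.95 CPM in VEZF1-WT and 2.47, 3.40 and 2.41 CPM in VEZF1-2A. Its groups did not overlap (log2 difference -0.53, SE 0.19, unadjusted edgeR p 0.0176). CITED2, a transcriptional coregulator, was at 9.46, 9.94 and 10.1 CPM in VEZF1-WT and 10.1, 14.5 and 12.5 CPM in VEZF1-2A. Its groups overlapped slightly, with VEZF1-2A-1 just under VEZF1-WT-3 (log2 difference -0.34, SE 0.13, unadjusted edgeR p 0.0233). VEZF1-2A-2 was the highest library for both, and without it the unadjusted edgeR p was 0.101 for PCK1 and 0.133 for CITED2. For PCK1 that p was also over 0.05 without VEZF1-WT-2 (0.0533) and after down-sampling to the smallest library (0.0668), and for CITED2 without VEZF1-WT-1 (0.0724). G6PC, the glucose-releasing enzyme of the same pathway, was at 0 in all libraries, and the stress gene SESN1, the next highest of the list in TPM, had a log2 difference of -0.03. KLF15, named after its values were seen, had a log2 difference of -0.45 with an unadjusted edgeR p of 0.0506.

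The genes whose pattern over the 6 libraries lay nearest to that of IGFBP2, by the root mean square difference of log2 CPM centred on each gene's mean, were ANXA2R (0.0681), PCK1 (0.0707) and RPL4P2 (0.0796). The median gene was at 0.351, and a gene with no variation would be at 0.321. The 6 points of each pattern share the libraries and their depth.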

How the data were processed

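RNA of HepG2 cells was measured in 6 libraries, 3 VEZF1-WT and 3 VEZF1-2A, grouped by their labels. The labels do not say that the libraries come from separate cultures, so p-values measure the spread between these libraries, which may be technical. The authors deposited whole-number read counts per gene, without normalization, from mRNA libraries made with a SMARTer kit. The submitters' processing notes name GRCh38. The aligner, the counting program and the strand setting are not given in the sources used here, and the paper's text names no test for its RNA-seq comparison. Of 59613 lines, 5 were left out because the ANK2 entry was broken. Counts from 11 to 100 were even numbers in 65.7% to 67.5% of cases. Pairs of libraries within a group were no copies of each other (their chi-square over its degrees of freedom was 3.43 to 13.5, against about 1 for sampling noise), and 20863 genes were at 0 throughout.

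Counts were filtered with filterByExpr (minimum count 10, minimum total 15), scaled by TMM (factors 0.977 to 1.01) and tested with glmQLFit and glmQLFTest of edgeR 4.0.16 in R 4.3.3 (two-sided, group as the covariate, prior degrees of freedom 6.35, prior count 0.125), and p-values were adjusted by Benjamini-Hochberg over 19111 genes. The biological coefficient of variation was 9.71%. For single genes an exact permutation test was run on log2(CPM + 0.1), which for 3 against 3 cannot go below 0.1. TPM was computed from the counts and the gene lengths of the table. Shared exon bases were found with bedtools 2.31.1. The test was checked on simulated counts. Genes named are all 10 members, TNS1, the 3 genes nearest to IGFBP2 in pattern, genes within 250 kb or sharing exons with a member as described, and, of each list, the 3 highest in TPM and every gene at an unadjusted p under 0.05. The members and the lists were chosen with earlier results of these data known. Alternatives were DESeq2 1.42.0 and its size factors, library size alone, limma 3.58.1 voom, no filter on low counts, counts halved, down-sampling to the smallest library, overlapping genes left out, the replicate number as a block and each library left out in turn. Leaving out both libraries numbered 3 was chosen after the data were seen.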

Additional observations from a re-analysis of the deposited data

How the results depend on the processing

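IGFBP1 lay below 0 in all 17 settings, and its unadjusted p was under 0.05 in 16. For IGFBP2 the difference was below 0 in 17 and under that p in 12. The exceptions with all libraries were DESeq2 (p 0.0611) and down-sampling (log2 difference -0.47, p 0.0858), so that both called 1 member in place of 2; members called ranged from 0 to 2 with 1 library left out, 0 without VEZF1-2A-2. The count over all genes at an unadjusted p was 408 as reported, 219 in DESeq2, 833 without both libraries numbered 3, 896 without a filter on low counts, 154 of the 8547 genes tested when overlapping genes were left out, and 292 to 973 with 1 library left out, the highest without VEZF1-2A-3. At an adjusted p it was 3, 4 and 16 in DESeq2, without both libraries numbered 3 and without the filter. Without the filter 1 member (IGFBP1) and 1 FOXO list gene (the same gene) passed the adjusted threshold, 5 FOXO list genes and 1 IGF pathway gene the unadjusted one, and IGF2 had an unadjusted p of 0.00135. Limma voom called 1 IGF pathway gene, IGF1, and leaving out 1 library gave 0 to 1 in that pathway and 1 to 3 in the FOXO list. Down-sampling called 2 FOXO list genes in place of 3. The cause was not tested.

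The correlations of same-numbered libraries were 0.082, 0.151 and 0.382, so the numbers were not taken as pairs. With the replicate block, 825 genes had an unadjusted p under 0.05 and 6 an adjusted one, among them 1 member and 1 FOXO list gene (IGFBP1, adjusted p 0.00162); not every library correlated best with its own number. The sign of the log2 difference turned for IGFBP3 without VEZF1-2A-2 (0.088). With 1 library left out the range was -0.75 to 0.088 for IGFBP3, -0.17 to 0.035 for IGFBP4, -0.057 to 0.29 for IGFBP6, -0.15 to 0.22 for IGFBP7, -0.45 to 0.089 for IGF2 and -0.14 to 0.022 for INSR, and IGFBP7 was at -0.012 in limma voom. The IGFBP1 share of the family in VEZF1-WT was 38.5% with counts in place of TPM (44.4% as reported); with 1 library left out it was 42.4% to 47.4%, and 53.5% to 62.8% in VEZF1-2A. IGFBP2, IGFBP3 and IGFBP5 rest on fewer than 100 counts a library, which limits what could be detected for them.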
